A study of Mus musculus with 6 samples.

Results

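Galr1, Galr2 and Gal of the galanin system, Tacr1, Tacr3 and Tac1 of the tachykinin system, the somatostatin receptor genes Sstr1, Sstr2 and Sstr3, and the neuropeptide Y receptor gene Npy1r were examined in the embryonic mouse cortex. These 10 genes of 18193 were taken by name, with each of the 17 probe sets, of 45037 on the array, that the platform annotation gives to 1 of them alone. Galr1 and Tacr3 are among the genes of this experiment that differ most between the genotypes, and the other members stand in the list beside them as their ligands and relatives. The members were thus chosen by the difference between cKO and WT in these same intensities, which is therefore given for them as a description without a test.

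The study measured total RNA of E14.5 mouse embryos on single-colour Affymetrix arrays, from the dorsal telencephalon, which becomes the cerebral cortex. The cKO group (3 arrays) is labelled as a knockout of the histone methyltransferase ESET, encoded by Setdb1, made with Emx2Cre, a Cre recombinase named for a gene of dorsal forebrain progenitors. The WT group (3 arrays) is labelled wild type, and both groups carry the labels male and C57BL\6. The labels do not say whether WT embryos carried Cre or which exons were removed, and the dissected tissue also holds vessel, blood and membrane cells in which this Cre need not act.

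Neuropeptides are short signalling molecules cut from larger precursor proteins and read by G protein-coupled receptors. Galanin acts on GALR1, which inhibits adenylyl cyclase, and on GALR2, which also activates phospholipase C. The tachykinins substance P and neurokinin B prefer the receptors encoded by Tacr1 and Tacr3, both of which activate phospholipase C. Somatostatin receptors are inhibitory, and they are found in the developing cortex as well as on mature neurons.

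Setdb1 on its brightest probe set read 704, 696 and 500 in cKO, against 1162, 1185 and 1033 in WT. The groups did not overlap on 1458215_at either (means of 22.8 in cKO and 67.2 in WT), but they did on 1416670_at (33.5 and 51.5). None of these probe sets was called in the limma fit over all probe sets given below (adjusted p = 0.237 for the brightest). Median intensities of the arrays ran from 98.7 to 119 in cKO and from 91.1 to 113 in WT. The arrays numbered 3 stood apart. The array labelled WT 3, whose label is male, had an Xist intensity of 17294 and a Kdm5d intensity of 10.2, where the other WT arrays had at most 59.0 for Xist and at least 915 for Kdm5d, and cKO 3 was high for both, at 8811 and 663. The summed intensity of 7 erythroid marker genes was 70892 on cKO 3 and 67339 on WT 3, and between 11192 and 17170 on the other 4 arrays. Of 8 measured markers of dorsal telencephalon, 0 had a mean below 50. Their sums, with Neurod6 the largest term, overlapped between cKO (38250 to 44366) and WT (40320 to 43942). The single markers did not all follow the sum. On 3 of them (Emx2, Eomes and Fezf2) cKO lay below WT without overlap, and on 1 (Neurog2) above. Emx2 averaged 688 in cKO and 1241 in WT. Values without the arrays numbered 3 stand beside some of the results below. Most values of the other peptide signalling genes and of the cell type markers are given with all arrays only.

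Upstream sequence was available for 8 of the 10 members in RefSeq tables of build GRCm38.p6. Tacr3 is shown because it differs between the genotypes, Tacr1 as its closest relative in the set and Sstr2 as a member with a strong signal in both groups. Each run is the 250 bases before the annotated start, on the plus strand, at chr3:134828757-134829006 for Tacr3, chr6:82402225-82402474 for Tacr1 and chr11:113619077-113619326 for Sstr2. Capitals mark CpG dinucleotides, the sites at which mammalian DNA is methylated.
Tacr3: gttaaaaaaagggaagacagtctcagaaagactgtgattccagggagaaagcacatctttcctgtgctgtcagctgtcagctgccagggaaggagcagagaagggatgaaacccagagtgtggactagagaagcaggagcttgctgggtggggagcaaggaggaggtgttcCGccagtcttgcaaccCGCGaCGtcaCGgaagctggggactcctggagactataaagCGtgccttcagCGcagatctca
Tacr1: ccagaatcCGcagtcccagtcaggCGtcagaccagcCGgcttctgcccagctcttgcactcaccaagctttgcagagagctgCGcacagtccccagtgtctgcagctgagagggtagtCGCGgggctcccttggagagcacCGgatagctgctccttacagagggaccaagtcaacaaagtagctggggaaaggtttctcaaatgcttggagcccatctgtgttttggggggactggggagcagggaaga
Sstr2: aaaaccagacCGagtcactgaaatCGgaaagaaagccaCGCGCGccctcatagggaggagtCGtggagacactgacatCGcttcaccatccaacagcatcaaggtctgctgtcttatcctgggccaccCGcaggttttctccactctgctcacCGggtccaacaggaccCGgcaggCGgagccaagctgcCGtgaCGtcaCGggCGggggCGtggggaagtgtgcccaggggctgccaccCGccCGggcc

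Tacr3 and Tacr1 each have 7 CpG sites in this window, and Sstr2 has 18. The median over 32851 upstream windows of the same length is 6. In Tacr3 the sites lie in the part of the window nearest the start, and in Sstr2 they are spread along it. Of the other members with a sequence, Tac1 has 17, Gal 11, Npy1r 10 and Galr2 4, and Sstr3 has 6 and 1 at its 2 annotated starts. Short motifs were searched on both strands. The letters TATAAA, the TATA box, were found in Tacr3 and in none of the other members' windows, and 12.4% of all windows hold them. The letters TGACG, the core of the cyclic AMP response element, were found in Tacr3, Tacr1, Tac1, Sstr2 and 1 of the 2 Sstr3 windows, against 17.8% of all windows. The E-box letters CANNTG were found in Tacr3, Tacr1, Tac1, Galr2, Npy1r and 1 Sstr3 window, against 66.2% of all windows. A match describes the letters and is not a binding site.

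Galr1, the inhibitory galanin receptor, was far higher in cKO on its brightest probe set. This probe set, 1441329_at, read 305, 272 and 213 in cKO, against 10.3, 3.09 and 9.69 in WT. Every cKO array was high and every WT array lay near the bottom of the array's range. The difference was 3.56 (SE 0.21) on the log2(intensity + 16) scale. As the WT mean of 7.68 is below the added 16, the size of this value depends on that constant, and it came to 5.05 with a constant of 1 and to 2.18 with 64. Without the arrays numbered 3 it was 3.76.

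The other probe sets of Galr1 did not all show this. Probe set 1427704_a_at read 144, 83.6 and 118 in cKO, against 1.73, 32.8 and 32.6 in WT. The groups did not overlap here either, and the difference was 1.89 (SE 0.43), or 2.96 with a constant of 1. Probe set 1450568_at read 28.2, 39.0 and 27.6 in cKO, against 39.3, 25.6 and 24.3 in WT, so that the groups overlapped, with a difference of 0.06 (SE 0.19). Of the 3 probe sets of Galr1, this is the one that the annotation ties to a RefSeq mRNA record. The other two are tied to other GenBank records.

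Galr2 and the galanin precursor gene Gal were dim in both groups. Galr2 read 5.31, 5.41 and 22.9 in cKO, against 30.1, 1.84 and 34.1 in WT, a difference of -0.41 (SE 0.45). Gal read 6.63, 22.2 and 38.2 in cKO, against 8.29, 21.5 and 43.8 in WT, a difference of -0.07 (SE 0.43). For Gal the arrays numbered 3 were the highest of both groups, and without them the difference was -0.04. Gal, the ligand gene, had no reading above 43.8 on any array. Levels of different probe sets cannot be set against each other, since probes bind with different strength.

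Tacr3, the receptor of neurokinin B, had 2 probe sets far higher in cKO. Probe set 1440803_x_at read 673, 364 and 438 in cKO, against 39.9, 44.0 and 49.6 in WT. Probe set 1437029_at read 256, 131 and 198 in cKO, against 1.21, 5.53 and 1.55 in WT. On both, cKO 1 was the highest and cKO 2 the lowest array of its group, and no cKO array came near a WT array. The differences were 3.03 (SE 0.24) for the first and 3.46 (SE 0.25) for the second. The second has a WT mean of 2.76, and its difference came to 5.83 with a constant of 1 and to 1.93 with 64. Without the arrays numbered 3 these differences were 3.14 and 3.38.

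The third Tacr3 probe set, 1450278_at, read 54.8, 19.8 and 74.5 in cKO, against 41.6, 32.9 and 56.6 in WT. The groups overlapped, the difference was 0.06 (SE 0.36), and without the arrays numbered 3 it was -0.07. As for Galr1, this probe set is the one of the 3 tied to a RefSeq mRNA record. Over all 17 member probe sets, the groups did not overlap on 4 of 7 tied to other GenBank records. Of the 10 tied to RefSeq mRNA records this held for 0. All 4 belong to Galr1 and Tacr3, which were taken because they differ, so nothing about record types is read from this split. Over all probe sets, of either record type, the share was 7.47% with cKO above and 6.07% with cKO below. Which parts of the transcripts the probes cover is not in the annotation used here. Other genes also had probe sets that parted. Of 37 genes that had a probe set called higher in cKO and more than 1 probe set, 22 had another probe set on which the groups overlapped. Another probe set with a difference of 0.1 or less was found for 13. Galr1 and Tacr3 are themselves included in each of these counts.

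**Figure D1:**
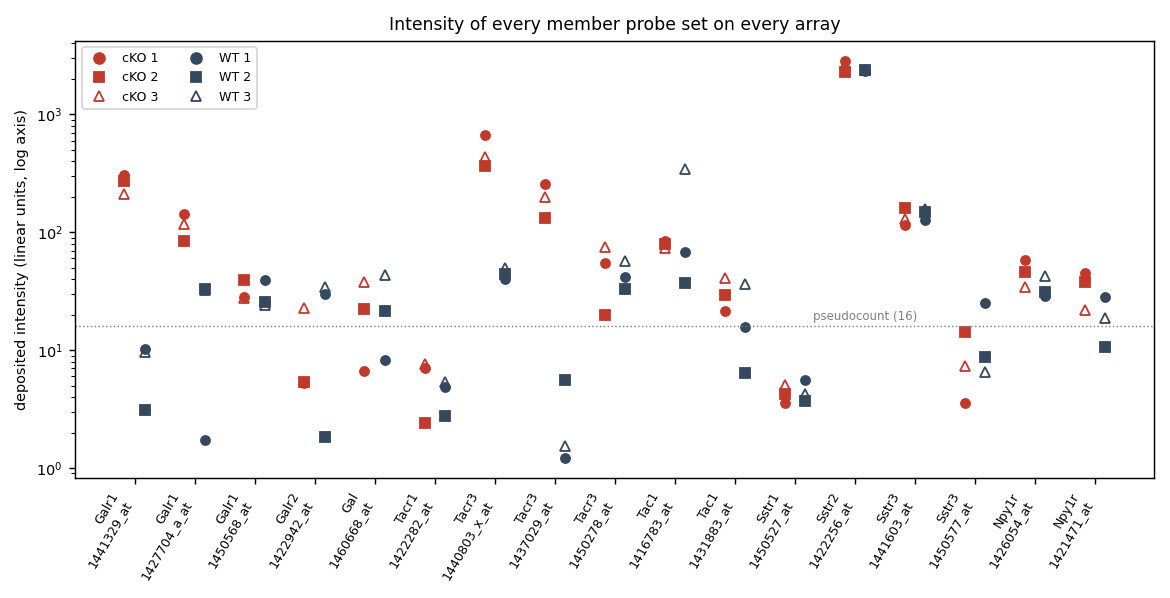
Deposited intensity on a log axis for each of the 17 member probe sets, with cKO arrays (red) left of WT arrays (dark), 1 symbol per array and open triangles for the arrays numbered 3. Galr1 1441329_at lies between 213 and 305 in cKO and at 10.3 or below in WT, and the Tacr3 probe sets 1440803_x_at and 1437029_at part in the same way, while the third probe set of each gene does not.

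Tacr1, the substance P receptor, was at the bottom of the range throughout. It read 7.04, 2.41 and 7.63 in cKO, against 4.85, 2.79 and 5.40 in WT, with a difference of 0.09 (SE 0.16). Tac1, which encodes substance P and neurokinin A and is abundant in striatal neurons of the ventral forebrain, was set by a single array. Its brighter probe set, 1416783_at, read 84.5, 79.8 and 73.5 in cKO, against 68.2, 37.4 and 344 in WT. No other array came near WT 3. The difference was -0.30 (SE 0.66) with all arrays, 0.50 without WT 3 and 0.55 without both arrays numbered 3, so its direction turns on WT 3. The dimmer probe set, 1431883_at, read 21.4, 29.1 and 40.6 in cKO, against 15.7, 6.42 and 36.6 in WT, where the arrays numbered 3 were again the highest of both groups.

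Of the 10 ventral telencephalon and interneuron markers, 5 were highest on WT 3 of all arrays (Dlx1, Dlx2, Dlx5, Dlx6 and Gsx2). The homeobox gene Dlx1 read 675, 584 and 688 in cKO, against 701, 562 and 1181 in WT, and Dlx2 read 413, 559 and 536 in cKO, against 462, 346 and 748 in WT. Others did not follow. Lhx6, a factor of migrating interneurons, was lowest on WT 3, at 644 against 705 or more on the other 5 arrays, and Gad1, which makes GABA, read 1044 on WT 3, below every cKO array and below WT 2 at 1102. The 10 markers summed to between 4344 and 4694 in cKO and to 3710, 3562 and 4931 in WT, with 2 markers (Dlx6 and Nkx2-1) at a mean below 50. The somatostatin precursor gene Sst, made by interneurons that migrate from the ventral forebrain, read 1138, 633 and 1159 in cKO, against 638, 725 and 1405 in WT. The part of ventral tissue in the Tac1 value was not tested. In such tissue samples, fewer cells of a type and less RNA per cell cannot be told apart.

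**Figure D2:**
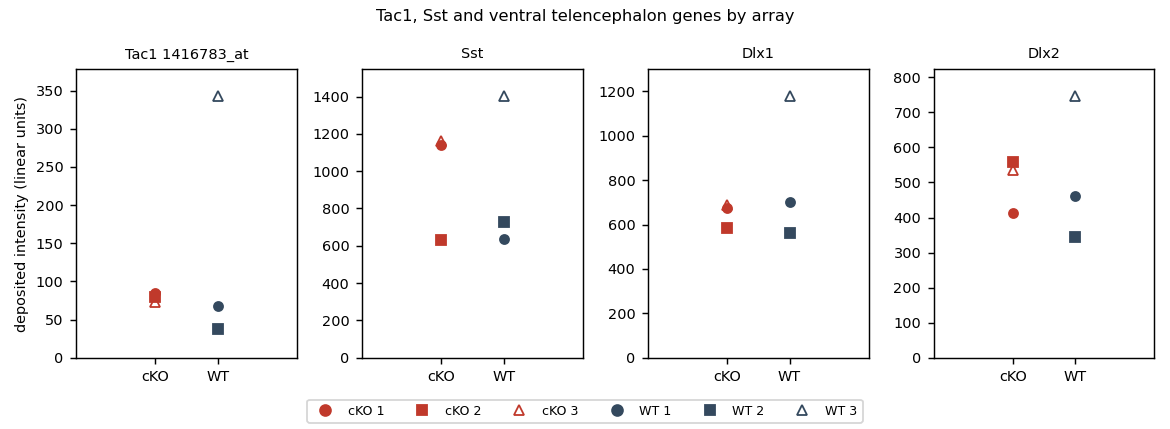
Deposited intensity, on linear axes from 0, of Tac1 (1416783_at), Sst and 2 of the 5 ventral markers that were highest on WT 3 (Dlx1 and Dlx2) on each array, with cKO left of WT. The open triangle of WT 3 is the highest point in each panel, at 344 for Tac1 and 1181 for Dlx1. The remaining ventral markers of the list, among them Lhx6 and Gad1, were not highest on WT 3 and are not shown.

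The somatostatin receptor genes gave no separation of the genotypes. Sstr2, at percentile 93.3 of all probe sets by mean intensity, read 2862, 2310 and 2622 in cKO, against 2354, 2381 and 2363 in WT. The cKO arrays lay on both sides of the narrow WT range, and the difference was 0.13 (SE 0.14). Sstr3 on 1441603_at read 116, 160 and 128 in cKO, against 126, 147 and 156 in WT, a difference of -0.08 (SE 0.17). Its other probe set, 1450577_at, averaged 8.38 ± 5.43 in cKO and 13.5 ± 10.1 in WT (SD, n = 3 each). Sstr1 averaged 4.30 ± 0.78 in cKO and 4.51 ± 0.99 in WT (SD, n = 3 each), among the dimmest 2.38% of probe sets.

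Npy1r, a receptor of neuropeptide Y, was dim and its groups overlapped. On 1426054_at it read 57.9, 46.2 and 34.3 in cKO, against 28.7, 31.3 and 42.6 in WT, a difference of 0.30 (SE 0.20). On 1421471_at it read 45.5, 38.2 and 21.9 in cKO, against 28.4, 10.6 and 18.6 in WT, a difference of 0.54 (SE 0.27). On both probe sets cKO 3 was the lowest cKO array. Without the arrays numbered 3 the differences were 0.56 and 0.75. Neither probe set was called in the fit given below, with or without these arrays. Npy itself read 535, 466 and 551 in cKO, against 412, 430 and 665 in WT, with WT 3 again the highest array.

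In the fit over all probe sets (limma, adjusted p under 0.05), 3 of the 17 member probe sets were called higher in cKO, 1 of Galr1 and 2 of Tacr3, and 0 lower. Of all probe sets 0.224% were called higher (101) and 0.0511% lower (23), or 97 and 41 after each array was centred on its own median. The groups did not overlap, with cKO above, on 4 member probe sets, against 7.47% of all probe sets, and with cKO below on 0, against 6.07%. Because the members were chosen with this contrast known, nothing is read from these counts. The median difference over the 17 member probe sets was 0.09, against 0.02 over all probe sets. Without the arrays numbered 3, 0 of the 17 were called, when 8 probe sets in all were called higher. Leaving out 1 array at a time, Galr1 1441329_at was called in 6 of 6 fits, Tacr3 1437029_at in 3 and Tacr3 1440803_x_at in 2. These fits reuse the values by which the genes were chosen, so their calls are no support for the difference.

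**Figure D3:**
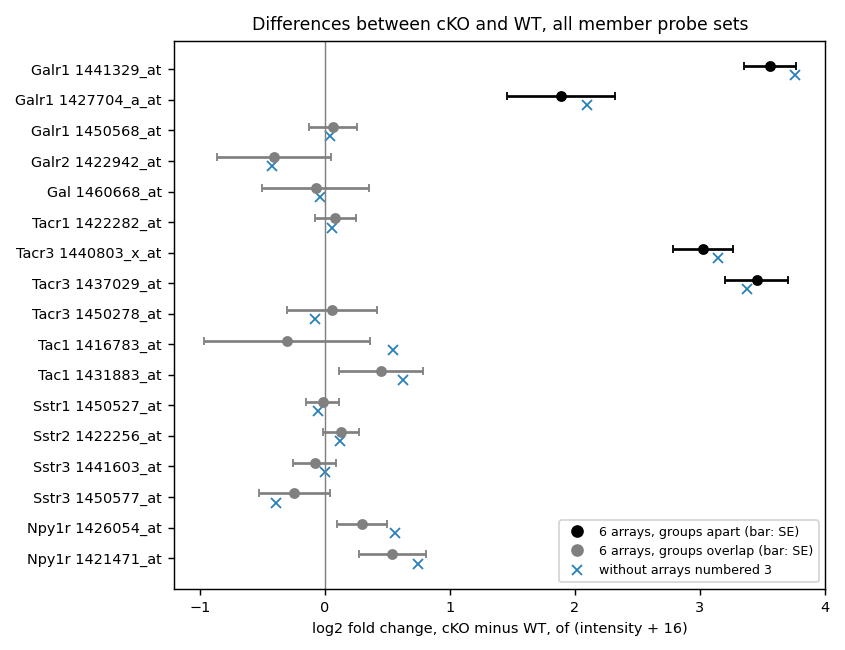
Difference between cKO and WT on the log2(intensity + 16) scale for each member probe set, with bars for the moderated SE, black where the groups do not overlap and grey where they do, and crosses for the value without the arrays numbered 3. Galr1 and Tacr3 each have 2 probe sets far to the right and 1 near 0, and the cross for Tac1 1416783_at lies on the other side of 0 from its point.

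The other genes of peptide signalling were taken from 5 lists with 150 measured genes in all. In limma 0 of them had a probe set called in either direction, where 0.374% of all genes had one called higher and 0.11% one called lower. At an unadjusted p under 0.05, 16 (10.7%) were higher and 10 (6.67%) lower in cKO, against 7.27% and 5.76% of all genes.

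The closest relatives, 16 measured genes for further galanin, tachykinin, somatostatin and neuropeptide Y peptides and receptors, had a median difference of 0.10, against 0.01 over all genes. The smallest p in this list was that of Kiss1r, the kisspeptin receptor, which read 77.0, 75.9 and 90.5 in cKO, against 61.8, 57.0 and 56.1 in WT (limma, difference 0.38, SE 0.14, adjusted p = 0.560). Tac2, the precursor of neurokinin B and so the ligand gene of Tacr3, was singled out after its values were seen, as were Sst and Npy above. It read 20.5, 40.5 and 30.0 in cKO, against 27.1, 36.7 and 6.28 in WT, and its groups overlapped (limma, difference 0.30, SE 0.35, adjusted p = 0.941). Sstr4, Npy4r and Npy5r, receptors for somatostatin and the neuropeptide Y family, had overlapping groups on every probe set.

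Among 47 measured receptors for other neuropeptides, whose median difference was 0.05 (-0.03 without the arrays numbered 3), the smallest p-values pointed both ways. Trhr, the receptor of thyrotropin-releasing hormone, read 18.9, 26.5 and 13.4 in cKO, against 59.8, 71.8 and 69.4 in WT (limma, difference -1.24, SE 0.18, adjusted p = 0.0817). Without the arrays numbered 3 this difference was -1.08 (limma, adjusted p = 0.316). On the dimmer probe set of Trhr, with means of 7.39 in cKO and 18.5 in WT, the groups overlapped, at -0.58 (SE 0.27). Trhr was the 1 gene of these lists that passed in any other fit, when each gene was represented by its brightest probe set alone (limma, adjusted p = 0.0457). Prokr2, a prokineticin receptor needed for olfactory bulb development, read 257, 221 and 231 in cKO, against 78.6, 82.1 and 153 in WT (limma, difference 1.12, SE 0.25, adjusted p = 0.247). Its second probe set gave 0.88 with groups that did not overlap. Gnrhr, the gonadotropin-releasing hormone receptor, and Vipr1, a receptor of vasoactive intestinal peptide, each had a probe set on which cKO lay above WT, at adjusted p = 0.393 and 0.406 in limma. For Gnrhr this was a dim probe set (means of 24.2 in cKO and 7.27 in WT), and on both others the groups overlapped, the brightest at -0.08. The dimmer probe set of Vipr1 (means of 12.3 in cKO and 2.88 in WT) also had cKO above WT without overlap, at 0.58.

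The 38 measured precursors of other neuropeptides had a median difference of 0.09. Crh, the corticotropin-releasing hormone gene, read 106, 152 and 150 in cKO, against 53.9, 44.1 and 58.0 in WT (limma, difference 1.15, SE 0.19, adjusted p = 0.112). Cck, the cholecystokinin gene, read 528, 498 and 525 in cKO, against 281, 416 and 306 in WT, with a difference of 0.62 (SE 0.18). Chga, a granin of secretory vesicles, averaged 1195 in cKO and 839 in WT, a difference of 0.51 (SE 0.14), and Ucn2, a relative of Crh, was at 0.56 (SE 0.18) with a WT mean of 4.46. Each of these 4 had groups that did not overlap and missed the threshold over all probe sets.

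Signalling and processing genes differed in both directions. Over 35 measured G protein subunits and effectors the median was 0.03. Plcb1, a phospholipase C activated by receptors such as TACR3, read 2145, 1822 and 2227 in cKO, against 1506, 1395 and 1553 in WT on its brightest probe set (limma, difference 0.47, SE 0.15, adjusted p = 0.466), and on each of its 4 other probe sets the groups overlapped. Gnao1, the alpha subunit of the inhibitory G protein Go, averaged 1378 in cKO and 1858 in WT (-0.43, SE 0.16). On its other probe sets the groups overlapped, at -0.60 and 0.05. Adcy9, an adenylyl cyclase, was at -0.68 (SE 0.19) on its brightest probe set and at -0.45 on 1419811_at. On its remaining probe sets the groups overlapped, at -0.21 and -0.19. A dim probe set of Prkca, a protein kinase C, was at 0.96 (SE 0.25) where its brightest was at -0.13. Over 14 enzymes that cut or degrade peptides the median was 0.03. Anpep, an aminopeptidase, averaged 22.6 in cKO and 4.13 in WT (limma, difference 0.94, SE 0.15, adjusted p = 0.101). Pcsk1, a convertase that cleaves precursors, averaged 77.9 in cKO and 32.6 in WT (limma, 0.94, SE 0.24, adjusted p = 0.322). Dpp4, a dipeptidyl peptidase, was at 0.89 (SE 0.33) on its brightest probe set and at 0.59 on a dim one. On its remaining probe sets the groups overlapped, at -0.08 and 0.05. Ace, the angiotensin-converting enzyme, was at 0.31 (SE 0.18) on its brightest probe set, where the groups did not overlap. On another probe set Ace was at -1.02 (SE 0.45), with overlapping groups.

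**Figure D4:**
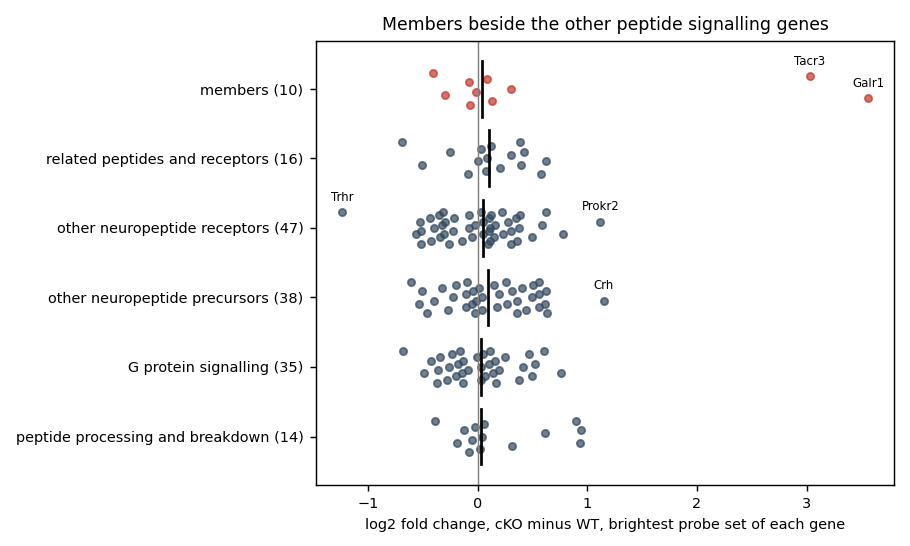
Difference between cKO and WT on the log2(intensity + 16) scale for the brightest probe set of each gene, 1 point per gene, for the 10 members (red) and the 5 lists of other peptide signalling genes (dark), with a black line at each median and the number of genes in brackets. Galr1 at 3.56 and Tacr3 at 3.03 lie beyond every gene of the lists, which run from Trhr at -1.24 to Crh at 1.15.

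Genes whose pattern over the 6 arrays was most like that of Galr1, Tacr3 and Sstr2 were found by Pearson's r of log2(intensity + 16) between brightest probe sets, among genes with a range of at least 1. All points come from the same 6 arrays, which fall into 2 genotypes, so for Galr1 and Tacr3 r mainly reflects the step between them. For Galr1 the 5 nearest were Tmem159 (r = 0.999), 2310043L19Rik and Ccnb3 (both 0.998), and Gramd1c and Dmc1 (both 0.996). Ccnb3, a cyclin of meiotic cells, averaged 522 in cKO and 8.70 in WT, and Dmc1, a meiotic recombinase, 230 in cKO and 66.5 in WT. For Tacr3 they were Dennd1c and Stbd1 (both 0.996), Klk1b24 (0.993), Ackr3 and Tex101 (both 0.989). Klk1b24 averaged 386 in cKO and 35.0 in WT, and Ackr3, an atypical chemokine receptor of migrating cortical neurons, 3008 in cKO and 1733 in WT. For Sstr2 the nearest were Phkg1, Lce1l, Col13a1, Hpse2 and Gm34344, with r from 0.983 to 0.992 and group means of 30.0 or less in cKO and 10.7 or less in WT, so these patterns lie in the dimmest readings.

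The genes next to the members in the RefSeq order of build GRCm38.p6 were read as well, 3 measured genes on each side. Over all 10 members 1 of 120 neighbouring probe sets was called in limma, against 0.224% of all probe sets called higher and 0.0511% called lower. At an unadjusted p under 0.05, 13 were higher and 1 lower, against 4.57% and 3.33% of all probe sets. Of the 14, 1 was among the 22 probe sets of Galr1's neighbours and 0 among the 10 of Tacr3's. Another 5 were among the 14 of Sstr2's, all of Cog1 and Slc39a11. A further 3 were among the 11 of Tac1's, all of Asns and C1galt1. Several probe sets of 1 gene are thus counted apart, and the number of genes is smaller. The called probe set was that of Asns, the asparagine synthetase gene beside Tac1, which rose to 1673, 1780 and 1447 in cKO, against 560, 630 and 733 in WT (limma, difference 1.33, SE 0.17, adjusted p = 0.0496). Its other probe set gave 1.18 (SE 0.16, adjusted p = 0.0622 in limma). The call was lost without the arrays numbered 3, at a difference of 1.51 and adjusted p = 0.263 in limma.

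Summed markers of some other cell types were apart between the genotypes, and each sum is carried by its brightest genes. Of 86 markers measured over all cell type lists, limma called 0 on their brightest probe set, and at an unadjusted p under 0.05, 6 were higher and 16 lower in cKO. The 8 Cajal-Retzius cell markers summed to between 4368 and 5261 in cKO and between 8340 and 8857 in WT, with Reln, the secreted protein of these cells, the largest term. On 5 of them cKO lay below WT without overlap. The groups overlapped on Nhlh2, which averaged 1195 in cKO and 1084 in WT, and on Calb2 (-0.26) and Cacna2d2 (-0.25). The 9 measured markers of diencephalon and hypothalamus, regions where galanin, neurokinin B and their receptors are used, summed to between 1100 and 1319 in cKO and between 709 and 1036 in WT. Most of that gap was Lhx9, at 568, 601 and 569 in cKO, against 259, 272 and 348 in WT. Otp and Sim1, which define hypothalamic neurons, had overlapping groups with means of 75.2 and 95.5 in cKO and 54.8 and 76.3 in WT. The 8 measured ganglion markers summed to between 262 and 356 in cKO and between 186 and 316 in WT, and each had a mean over the 6 arrays below 50. Among them Avil averaged 67.2 in cKO and 18.1 in WT, and Prrxl1 was at 0.82, both with groups that did not overlap. Isl1 averaged 27.9 in cKO and 58.2 in WT with overlap, and its WT mean was carried by WT 3, at 132. Without the arrays numbered 3 the difference was 1.39 for Avil, 0.38 for Prrxl1 and -0.08 for Isl1. The 6 subplate markers summed to between 1402 and 1711 in cKO and between 2597 and 2673 in WT, but the single markers did not all follow. Nr4a2, at -1.18, and Hs3st4, at 387 in cKO and 806 in WT, carried the sum, and Tmem163 was at -0.68. On these 3 markers cKO lay below WT without overlap. Nxph4 averaged 350 in cKO and 185 in WT, with groups that did not overlap. The groups overlapped on Cplx3, at 0.62 (SE 0.47), and on Ccn2, at -0.07. The 8 endothelial markers summed to between 1133 and 1298 in cKO and between 1414 and 1580 in WT. On 3 of them (Tie1, Emcn and Cldn5) cKO lay below WT without overlap. The groups overlapped on the others, which ran from -0.26 for Flt1 to 0.06 for Pecam1. The 10 markers of meninges and mesenchyme reached 2216 on cKO 3, against 324 and 448 on the other cKO arrays and 495 to 690 in WT. The part of these cells in the Galr1 and Tacr3 values was not tested.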

How the data were processed

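Total RNA of 6 dorsal telencephalon samples was labelled with biotin and hybridised to single-colour arrays. The authors deposited linear array intensities, a single summarised value for every probe set and array, made with the Affymetrix Expression Console per the submitters' processing notes. Which version and which summary method is not given in the sources used here. Trimmed means (2% off each end) of 497.2 to 497.7 on every array show a common scaling. Between 16.1% and 20.3% of values per array were below 16.

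Intensities were taken to log2(intensity + 16) without further normalization, since array medians differed by 0.33, under the preset 0.5. All 45037 probe sets were fitted with genotype as the only term in limma 3.58.1 (lmFit and eBayes, R 4.3.3) with two-sided Benjamini-Hochberg adjustment over all of them at 0.05. SE is the moderated standard error, SD that of 3 arrays. Nothing in the labels says that arrays came from separate litters, so p-values measure the spread between these samples, whose number limits the precision. Gene names come from the platform annotation. 34945 probe sets have 1 gene, 932 several and 9160 none.

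The members and lists were chosen with earlier results of these data known. Of each list, genes called and up to 4 with the smallest p were named. The neighbour and probe set comparisons were chosen after the data were seen. The fit was tested on simulated data. Alternatives were quantile normalization, median centring, a filter on dim probe sets, constants of 1 and 64, trended robust eBayes, 1 probe set per gene, the replicate number or the arrays numbered 3 as a block, and leaving arrays out. Figures were drawn with matplotlib 3.10.9.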

Additional observations from a re-analysis of the deposited data

How the results depend on the processing

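Of 101 probe sets higher and 23 lower in cKO, leaving out 1 array left between 19 and 34 higher and between 0 and 2 lower, and leaving out both arrays numbered 3 left 8 and 0. A block for the replicate number left 7 and 0. That number pairs nothing for certain, as deviations of same-numbered arrays correlated at 0.08, 0.19 and 0.41 and 4 of 6 arrays matched their own number best. Of the lower probe sets, centring gave 41, a constant of 64 gave 56 and 1 probe set per gene gave 44. A constant of 1 gave 41 higher and 7 lower, trended robust eBayes 174 and 83, and omission of probe sets below the median mean 166 and 86. With 1 probe set per gene, 1 gene of the other neuropeptide receptors list was called lower, against 0. That fit adjusts for fewer tests and also estimates the spread anew. Of the 3 called member probe sets, 0 were called with the replicate block. The 4 member probe sets whose groups do not overlap kept their direction in each fit that held them, as groups that do not overlap must when arrays are left out. The cause of the other changes was not tested. The filter on dim probe sets kept only 3 of the 17 member probe sets. Dim signal limits 5 of the 10 members, whose probe sets all had means below 50 in both groups.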
